A study of Mus musculus with 31 samples.

Results

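The question here was whether microglia that lack cGAS answered tau fibrils differently from wild-type microglia, gene by gene. The comparison is the tau response in Cgas KO cells minus the tau response in WT cells on the log2 scale, the interaction of treatment with genotype, fitted to all 12 libraries at once. It covers 13405 genes that passed a filter on low counts, of 54532 in the table. Primary microglia had been grown from the cortices of mouse pups on postnatal days 1 to 3, in mixed glial cultures with GM-CSF, and the 4 groups of 3 libraries were WT (Cgas+/+) with vehicle, WT with tau, Cgas KO (Cgas-/-) with vehicle and Cgas KO with tau. The tau groups received 0N4R tau fibrils at 2 µg/ml for 6 h. The cells came from Cgas KO animals, so vehicle-treated Cgas-/- cells had also developed without cGAS, and these are cultured cells from pups rather than microglia of an adult brain. RNA was read from the 3′ ends of transcripts, with 17037459 to 25174764 counts per library. The study calls the replicates of these microglia data biologically independent samples, while neither it nor the labels say whether they came from separate animals or cultures. The p-values measure the spread between these libraries, which may be partly technical.

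cGAS binds double-stranded DNA in the cytosol and makes cyclic GMP-AMP, which activates STING and then the kinase TBK1 and the transcription factor IRF3. Type I interferon made in this way acts back on cells through its receptor, and a complex that includes STAT2 and IRF9 binds the interferon-stimulated response element (ISRE) of antiviral genes. Microglia keep some of these genes on without stimulation. Inflammatory genes such as Tnf and the neutrophil chemokines are driven mainly by NF-kB and AP-1, which pattern receptors can activate without cGAS. The study also cites earlier work on cultured microglia in which tau activated cGAS-STING and raised NF-kB signalling. In this assay a difference in cell make-up and a difference in RNA per cell cannot be told apart.

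The transcript of Cgas itself, listed as Mb21d1, was present at 27.8, 19.2 and 24 CPM (counts scaled to library size) in the WT vehicle libraries and at 35.8, 33.5 and 34.4 CPM with tau. In Cgas-/- cells it was at 4.17, 5.62 and 5.35 CPM with vehicle and at 7.61, 6.97 and 7.20 CPM with tau. Every Cgas-/- library was below every WT library, and no interaction was called for the transcript (log2 -0.03, standard error 0.18, adjusted p = 0.95, edgeR quasi-likelihood test). These are 3′ tags, and the sources used here do not say which part of the gene the deletion removed, so the residual tags check nothing beyond the labels. All 15 microglial markers passed the filter, with summed levels of 12200 to 12600 CPM in WT and 9180 to 9570 CPM in Cgas-/- libraries. Among markers of other cells, the border macrophage list summed to 424 to 524 CPM in WT and 218 to 261 CPM in Cgas-/- libraries. Its members differed in direction. Mean vehicle levels in WT and Cgas-/- cells were 227 and 60.7 CPM for Ms4a7 and 80.9 and 29.2 CPM for Mrc1. They were 124 and 125 CPM for Pf4 and 0.466 and 1.83 CPM for F13a1. The endothelial list summed to 109 to 181 CPM and 28.2 to 34.9 CPM, almost all from Flt1 and Kdr, with Cldn5 at 4 counts or fewer in any library. The part of other cells in the results was not tested.

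Of the 13405 genes, 864 (6.45%) had a tau response that differed between genotypes at an adjusted p under 0.05, 385 (2.87%) with a lower and 479 (3.57%) with a higher value in Cgas-/- cells. By comparison, tau raised 2042 genes (15.2%) and lowered 1747 (13%) in WT cells, and raised 1466 (10.9%) and lowered 742 (5.54%) in Cgas-/- cells. The called genes were sorted by the sign and size of their responses. For 576 genes the response was smaller in Cgas-/- cells, 333 of them rising less and 243 falling less. The response itself did not pass the test in Cgas-/- cells for 195 of the 333 and 206 of the 243. For 271 genes the response was larger, 224 of them rising more and 47 falling more. For 17 genes it was reversed, with opposite signs that each passed the test within its own genotype. The fitted responses also had opposite signs, without passing in both genotypes, for 75 of the 333, 113 of the 243, 39 of the 224 and 36 of the 47. Rising or falling less thus names the direction in WT cells, and rising or falling more that in Cgas-/- cells. Sizes were very uneven between these classes. The interaction exceeded 1 on the log2 scale, a 2-fold difference between the responses, for 103 of the 224 genes that rose more, but for only 18 of the 333 that rose less and 5 of the 243 that fell less. The split of calls depended on scaling, since 44.6% of the called genes were lower in Cgas-/- cells here and 54.4% with RLE scaling in the same test (55.3% with DESeq2), while all 864 genes kept their direction. Without the third WT tau library 207 genes were called lower and 290 higher, without the first WT tau or the first Cgas-/- vehicle library 272 were called higher, and without the second WT tau library 593 were called lower.

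**Figure D1:**
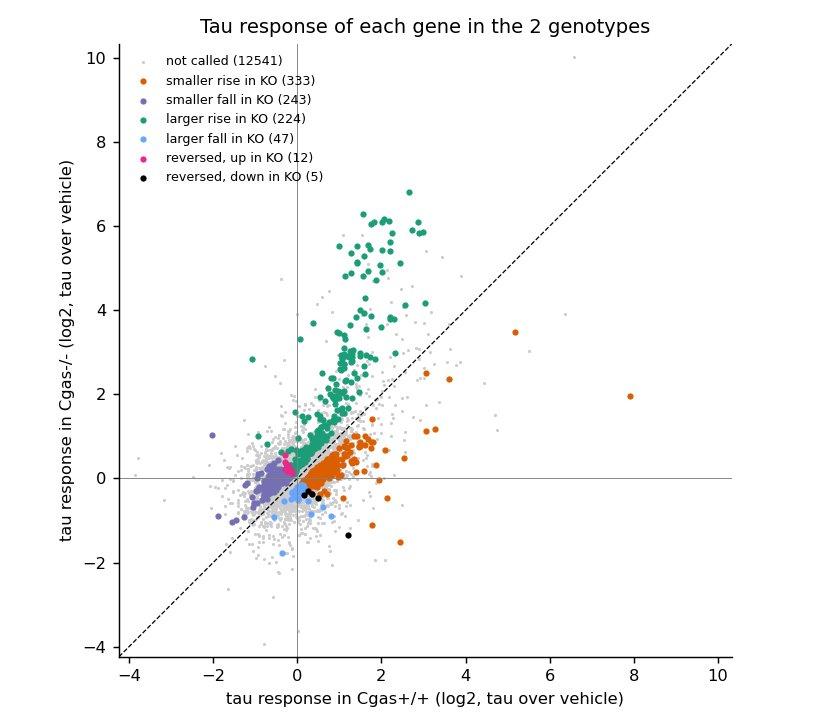
Each point is 1 gene, placed by its log2 tau response in Cgas+/+ (x axis) and Cgas-/- cells (y axis), and coloured by class for the 864 genes with a called interaction. On the dashed line both responses are equal. The 224 genes that rose more in Cgas-/- cells lie above it in an arm that reaches a Cgas-/- response above 6, and the 333 that rose less lie below it.

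Interferon-stimulated genes made up much of the class that rose more without cGAS. Of 102 antiviral interferon-stimulated genes tested, from a list of 107, 80 had a higher tau response in Cgas-/- cells and 3 a lower one. Their median tau response was 1.18 on the log2 scale in WT and 2.62 in Cgas-/- cells, against -0.02 and 0.00 over all genes tested. The median interaction was 1.19, or 1.17 when the 8 members at 3 counts or fewer in every Cgas-/- vehicle library are set at the bound this floor allows (median Cgas-/- response then 2.50). Of the 20 interferon-inducible GTPases tested, which attack the vacuoles of intracellular pathogens, 12 had a higher response (3.57% of all genes did), and 6 with limma-voom. None was called lower by edgeR, DESeq2 or limma-voom, and 1 was lower at an unadjusted p under 0.05.

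Oasl2, of the oligoadenylate synthetase family of double-stranded RNA sensors, had the lowest adjusted p of all. It stood at 232, 177 and 195 CPM in WT cells with vehicle and at 462, 403 and 463 CPM with tau. Without cGAS it stood at 3.37, 7.07 and 4.27 CPM with vehicle and at 141, 137 and 135 CPM with tau. The 4 groups did not overlap, and tau-treated Cgas-/- cells stayed below vehicle-treated WT cells. The rise was 2.20-fold in WT and 28.1-fold in Cgas-/- cells, an interaction of 3.67 with a standard error of 0.17 (edgeR adjusted p = 7.46e-12).

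Ifit3, an interferon-induced protein that helps to hold back viral RNA, had the largest interaction of the genes that rose more. Its WT libraries held 595, 253 and 396 CPM with vehicle and 1322, 1038 and 1305 CPM with tau. The Cgas-/- libraries held 1.26, 1.77 and 1.35 CPM with vehicle and 128, 103 and 109 CPM with tau. Again the groups were separate and the highest Cgas-/- library lay below the lowest WT library. The interaction was 4.72 (standard error 0.39, adjusted p = 4.52e-08). Further values in this class were 4.53 for Rtp4, 4.30 for Ifit1 and 4.11 for Oas3, another oligoadenylate synthetase.

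Iigp1 and Gm4951, both GTPases of this family, were at 3 counts or fewer in each Cgas-/- vehicle library, so their rise there was at least 29.2-fold and at least 48.0-fold. Their fitted interactions of 4.15 and 4.27 depend on how a count of 0 is treated, and with limma-voom the adjusted p was 0.074 and 0.092. Reads of near-identical relatives, as among the Ifit, Oas1, Slfn and Ifi200 genes, may have been split between members by the authors' counting.

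Some of the signalling genes that carry interferon's message also rose more in Cgas-/- cells. Irf7, the factor that amplifies interferon production, rose from 220, 137 and 174 CPM to 549, 460 and 553 CPM in WT cells. In Cgas-/- cells it rose from 3.71, 4.82 and 4.72 CPM to 138, 125 and 115 CPM, an interaction of 3.27 (standard error 0.20, adjusted p = 9.87e-10).

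For Irf9, the DNA-binding subunit of the complex, the gain in CPM was also larger in Cgas-/- cells, at 52.5 CPM against 16.2 CPM in WT. It moved from 92.6, 85.1 and 84.0 CPM to 106, 103 and 102 CPM in WT cells and from 29.4, 31.8 and 29.2 CPM to 84.9, 85.3 and 77.7 CPM in Cgas-/- cells, an interaction of 1.21 (standard error 0.08, adjusted p = 9.87e-10). Stat2 had an interaction of 1.73. Of the 24 tested genes of the pathway from cGAS to the interferon receptors, 5 were higher, among them Irf7, Irf9, Stat2 and the DNA sensor Ifi204, and 3 lower in Cgas-/- cells (Tbk1 -0.27, Tyk2 -0.22 and Irf5 -0.21), against 3.57% and 2.87% of all genes. The median interaction of the 24 was -0.03, with 11 values above 0. The receptor subunits Ifnar1 and Ifnar2, the kinase Jak1 and STING itself (Tmem173) had interactions between -0.11 and 0.10 that did not pass the test. The 3 lower calls were all lost without the third WT tau or the third Cgas-/- vehicle library.

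**Figure D2:**
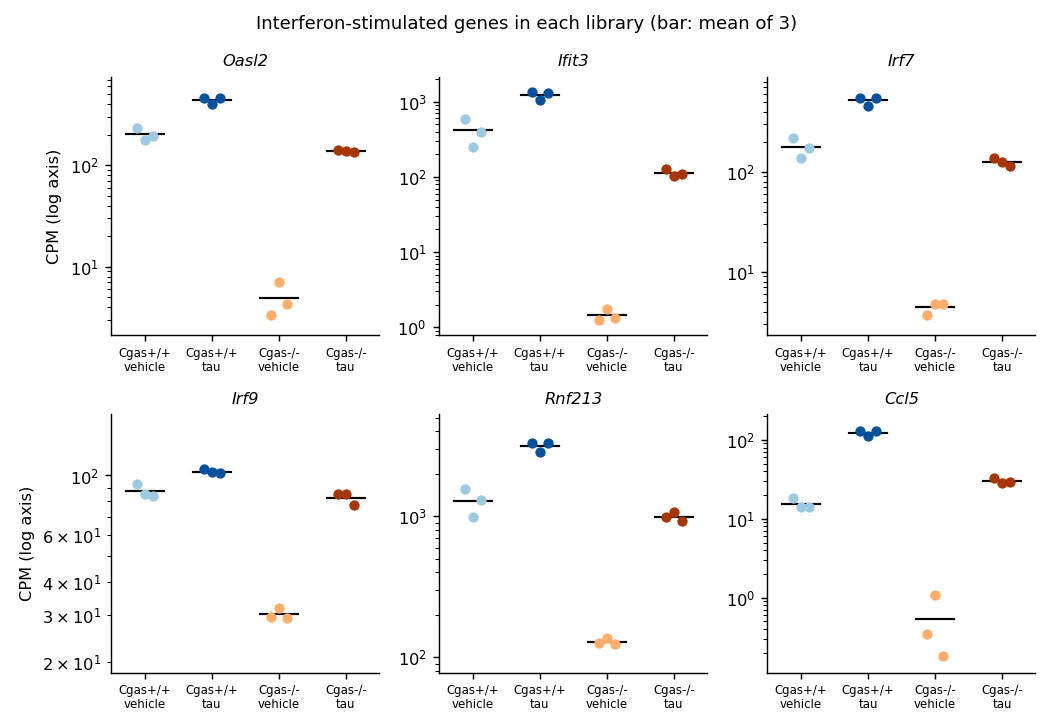
Each point is 1 library and each bar the mean of 3, in CPM on a log axis, for 6 interferon-stimulated genes in the 4 groups. In every panel the Cgas-/- vehicle libraries are lowest, and the step from vehicle to tau is longer in Cgas-/- than in Cgas+/+ cells.

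Genes that the study had singled out in this pathway mostly belonged to the same class. Rnf213, a large ubiquitin ligase with antimicrobial activity, was at 1571, 991 and 1303 CPM with vehicle and 3295, 2866 and 3298 CPM with tau in WT cells. Without cGAS it was at 125, 136 and 125 CPM and at 990, 1072 and 926 CPM, an interaction of 1.66 (standard error 0.14, adjusted p = 8.5e-08). Sp100, a nuclear body protein, had an interaction of 1.51, Ddx60, an RNA helicase of antiviral defence, 1.09, Parp12, an ADP-ribosyltransferase, 0.96 and Ifi35 0.60, each at an adjusted p of at most 0.00501. Isg20, an exonuclease that degrades viral RNA, rose by 2.06 in WT and 2.22 in Cgas-/- cells, and no interaction was called (0.16, standard error 0.26, adjusted p = 0.797). Its WT libraries held 11.8, 6.90 and 10.1 CPM with vehicle and 40.8, 37.1 and 41.7 CPM with tau, and its Cgas-/- libraries 1.14, 1.77 and 1.71 CPM and 8.28, 7.18 and 6.36 CPM.

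A larger fold rise did not mean a higher level. With vehicle, 99 of the 102 antiviral genes were lower in Cgas-/- cells (27.2% of all genes were lower and 25.4% higher), with a median difference of -2.94. With tau, 98 of 102 were still lower (25.8% of all genes lower, 26.4% higher), with a median difference of -1.67. The interaction and the vehicle difference share the vehicle libraries, so these values stand side by side and are not independent. Counted as CPM gained rather than as a fold, the increase was larger in WT cells for 96 of the 102 genes (94.1%, against 48.7% of all genes tested), a description chosen after the data were seen. Oasl2 gained 241 CPM (standard error 25.6) in WT and 133 CPM (standard error 2.12) in Cgas-/- cells, and Ifit3 gained 807 CPM (standard error 135) and 112 CPM (standard error 7.77). The exceptions were Trim25, Trim12c, Trim5, Ifi27, Shisa5 and Ifitm2.

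Tau raised the antiviral genes of Cgas-/- cells toward the level at which WT cells held them without tau, and most stayed below it. Between tau-treated Cgas-/- and vehicle-treated WT cells the median difference was -0.41, with 67 of 102 genes lower, 5 higher and 30 not called (over all genes, 24.7% were lower and 26.4% higher). The 5 above the WT vehicle level were Slfn4, Ifitm6, Ifitm2, Cd274 and Nt5c3.

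Of the 3 antiviral genes with a lower response in Cgas-/- cells, Nt5c3 had an interaction of -0.92, Cd274, which encodes the checkpoint ligand PD-L1, -0.73 and Ms4a6d -0.29. The 80 genes with a higher response were 79 that rose more and Ifi27, which reversed.

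The promoters of 2 of the largest interferon-type responses are shown because they carry the letters of an ISRE core, together with that of Oasl2, which has the lowest adjusted p and no match, and that of Cxcl2, whose response went the other way (chosen after its values were seen). Each run is the 250 bases before the RefSeq start, 5′ to 3′ on the gene's strand, on build GRCm38.p6. Capitals mark matches to GAAANNGAA (ISRE core), GGANTTTCC (NF-kB) or TGANTCA (AP-1) on either strand.
Ifit3, chr19:34583279-34583528, plus strand: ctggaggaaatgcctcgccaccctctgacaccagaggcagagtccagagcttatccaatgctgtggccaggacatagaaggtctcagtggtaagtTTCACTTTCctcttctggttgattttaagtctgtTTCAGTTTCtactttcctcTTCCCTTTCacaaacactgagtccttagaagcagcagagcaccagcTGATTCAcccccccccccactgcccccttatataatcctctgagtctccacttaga
Oas3, chr5:120777660-120777909, minus strand: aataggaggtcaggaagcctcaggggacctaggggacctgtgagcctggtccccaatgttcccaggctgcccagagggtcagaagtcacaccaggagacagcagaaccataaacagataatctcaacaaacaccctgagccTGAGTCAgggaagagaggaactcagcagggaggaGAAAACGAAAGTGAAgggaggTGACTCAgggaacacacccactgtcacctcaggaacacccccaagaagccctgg
Oasl2, chr5:114896684-114896933, plus strand: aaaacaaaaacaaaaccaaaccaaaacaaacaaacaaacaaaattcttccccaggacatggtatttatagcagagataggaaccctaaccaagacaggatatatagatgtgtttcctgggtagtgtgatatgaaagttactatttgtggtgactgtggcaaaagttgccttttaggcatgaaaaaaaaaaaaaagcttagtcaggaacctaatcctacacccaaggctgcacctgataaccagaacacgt
Cxcl2, chr5:90903649-90903898, plus strand: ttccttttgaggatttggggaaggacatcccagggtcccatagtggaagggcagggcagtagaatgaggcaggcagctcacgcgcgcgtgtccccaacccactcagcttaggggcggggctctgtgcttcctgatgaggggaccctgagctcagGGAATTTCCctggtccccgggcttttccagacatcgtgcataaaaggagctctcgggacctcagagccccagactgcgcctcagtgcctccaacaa
No match stood in the windows of Irf7, Irf9 and Rnf213, which the same rule picked, or of Tnf, looked at with Cxcl2 after its values were seen. Ifit3 held 3 ISRE cores and 1 AP-1 match, Oas3 held 2 overlapping ISRE cores between 2 AP-1 matches, and Cxcl2 held 1 NF-kB match beginning 96 bases before the start. Windows of 300 bases (250 before and 50 after the start) were found for 9848 of the tested genes. At least 1 ISRE core stood in 36.3% of genes that rose more in Cgas-/- cells, in 10.9% of those that rose less, in 5.38% of those that fell less and in 8.94% of all these genes. NF-kB matches stood in 3.88% of genes that rose less, 2.98% of those that rose more and 1.72% of all, and AP-1 matches in 9.69%, 11.9% and 6.37%. Among the antiviral list 56.6% held an ISRE core. These matches are letters in a window and not measured binding.

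Many inflammatory genes went in the opposite direction, with a smaller rise in Cgas-/- cells. Of 41 NF-kB subunits, feedback regulators and target genes, 17 had a lower tau response in Cgas-/- cells (2.87% of all genes did). None was called higher by edgeR, DESeq2 or limma-voom, and 1 was higher at an unadjusted p under 0.05. The count of 17 was 11 without the third WT tau library. The median response was 0.77 in WT and 0.46 in Cgas-/- cells, and the median interaction -0.28, with 5 of 41 values above 0. The lower calls included the inhibitors Nfkbia (-0.61), Nfkbiz (-0.36) and Tnfaip3 (-0.27), the mRNA-decay endonuclease Zc3h12a (-0.49), the kinase phosphatase Dusp1 (-0.63), the costimulatory receptor Cd40 (-1.25) and the adhesion molecule Icam1 (-0.41). The subunits Rela, Nfkb1, Nfkb2, Rel and Relb had interactions between -0.18 and 0.05 that did not pass.

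Cxcl2, a chemokine that draws neutrophils, rose from 3.26, 4.02 and 4.13 CPM to 32.3, 25.7 and 37.4 CPM in WT cells. In Cgas-/- cells it rose from 7.83, 6.75 and 8.40 CPM to 15.5, 16.2 and 18.6 CPM. It began higher and ended lower without cGAS, with an interaction of -1.94 (standard error 0.20, adjusted p = 1.22e-06). Cxcl1, a relative of Cxcl2, was at 3 counts or fewer in each WT vehicle library, so it rose at least 9.95-fold in WT cells. Its response in Cgas-/- cells was 1.95 on the log2 scale, a unit not to be read beside the fold.

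Tnf, the founding cytokine of its family, rose from 24.7, 21.5 and 20.6 CPM to 99.3, 77.1 and 107 CPM in WT cells and from 28, 34.1 and 34.5 CPM to 48.3, 49.0 and 58.4 CPM in Cgas-/- cells. The interaction was -1.39 (standard error 0.15, adjusted p = 2.5e-06). Ptgs2, the inducible cyclooxygenase that makes prostaglandins, rose from 4.89, 3.49 and 2.92 CPM to 36.3, 27.8 and 46.4 CPM in WT cells and from 2.97, 3.43 and 4.81 CPM to 8.64, 8.89 and 8.40 CPM in Cgas-/- cells. Its vehicle libraries overlapped between genotypes, and its interaction was -2.09 (standard error 0.29, adjusted p = 5.91e-05).

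Il1b, the pyrogenic cytokine released by inflammasomes, rose from 0.543, 0.575 and 0.495 CPM to 20.6, 13.7 and 24.9 CPM in WT cells. Without cGAS it rose from 1.2, 0.696 and 1.44 CPM to 13.2, 13.1 and 11.6 CPM. The interaction of -1.69 (standard error 0.44, adjusted p = 0.0213) was not called with limma-voom (adjusted p = 0.191) or without the third WT vehicle, the first Cgas-/- vehicle or the third Cgas-/- vehicle library (adjusted p up to 0.126). Il1a had an interaction of -0.88, and Il1rn, the receptor antagonist, -0.50. Il6 was not called (-2.48, standard error 1.04, adjusted p = 0.177), with levels of at most 3.38 CPM.

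For some chemokines no tau response was called in Cgas-/- cells. Ccl3, which attracts macrophages and T cells, rose from 89.3, 60.7 and 76.3 CPM to 234, 186 and 258 CPM in WT cells. In Cgas-/- cells it was at 83.3, 83.1 and 89.5 CPM with vehicle and at 107, 93.0 and 91.6 CPM with tau, a response of 0.19 that did not pass the test (adjusted p = 0.277). The interaction was -1.40 (standard error 0.15, adjusted p = 2.5e-06), and that of its neighbour Ccl4 was -1.24. The matrix metalloproteinase Mmp13 went from 165, 136 and 149 CPM to 300, 267 and 315 CPM in WT cells and from 72.1, 62.8 and 68.4 CPM to 69.8, 66.7 and 70.2 CPM in Cgas-/- cells, an interaction of -0.94 (standard error 0.09, adjusted p = 8.48e-07). Zfp36, the mRNA-destabilising protein that limits Tnf, had a response of 0.76 in WT and 0.01 in Cgas-/- cells.

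Most CXCR3 ligands and CC chemokines had interactions below 0, but not all moved together. Of 12 tested, 3 had a lower and 1 a higher response in Cgas-/- cells (2.87% and 3.57% of all genes). Their median interaction was -0.62, and the 2 values above 0 were those of Ccl5 and Cxcl10. Ccl5, which recruits T cells and is an interferon target, went from 18.2, 14.2 and 14.1 CPM to 128, 111 and 131 CPM in WT cells and from 0.343, 1.07 and 0.180 CPM to 32.7, 28.6 and 29.6 CPM in Cgas-/- cells. Its interaction was 2.87 (standard error 0.31, adjusted p = 2.5e-06). For Cxcl10, a CXCR3 ligand, the WT libraries held 104, 34.3 and 68.9 CPM with vehicle and 619, 453 and 645 CPM with tau. The Cgas-/- libraries held 0.629, 0.642 and 0.405 CPM and 25.5, 24.3 and 21.3 CPM. The interaction of 2.37 (standard error 0.74) had an adjusted p of 0.0596 in edgeR and was not called. It was called in 4 of the 6 other fits to all the libraries (adjusted p from 2.27e-31 with no filter to 0.465 with limma-voom) and in 2 of the 12 fits that leave out a library, those without the first or the second WT vehicle library. Cxcl11 was at most at 0.0428 CPM in Cgas-/- cells, too low to compare. Cxcl3, a close relative of Cxcl2, rose by 2.64 in WT and 3.04 in Cgas-/- cells, with no interaction called (0.40, adjusted p = 0.501).

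Socs3, the feedback inhibitor of cytokine receptors, differed in its starting level. It went from 7.88, 5.92 and 7.65 CPM to 26.7, 21.1 and 30.1 CPM in WT cells, and from 22.7, 20.2 and 22.6 CPM to 26.5, 31.8 and 23 CPM in Cgas-/- cells. The tau levels overlapped between genotypes while the vehicle levels did not, with an interaction of -1.55 (standard error 0.18, adjusted p = 8.81e-06).

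Of the proinflammatory cytokines and enzymes 5 of 26 had a lower and 2 a higher response (2.87% and 3.57% of all genes), the latter being Saa3 and Acod1. Acod1, which makes itaconate, rose from 223, 120 and 146 CPM to 1424, 1122 and 1494 CPM in WT cells and from 24.7, 21.7 and 23.5 CPM to 441, 413 and 405 CPM in Cgas-/- cells, an interaction of 1.12 (standard error 0.20, adjusted p = 0.00143). The higher count was 4 with no filter on low counts or with the replicate block, and the lower count was 8 with no filter. The higher count was 1 with DESeq2 and in 7 of the 12 fits that leave out a library, namely the first WT vehicle, any WT tau, the first or the third Cgas-/- vehicle or the second Cgas-/- tau library.

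**Figure D3:**
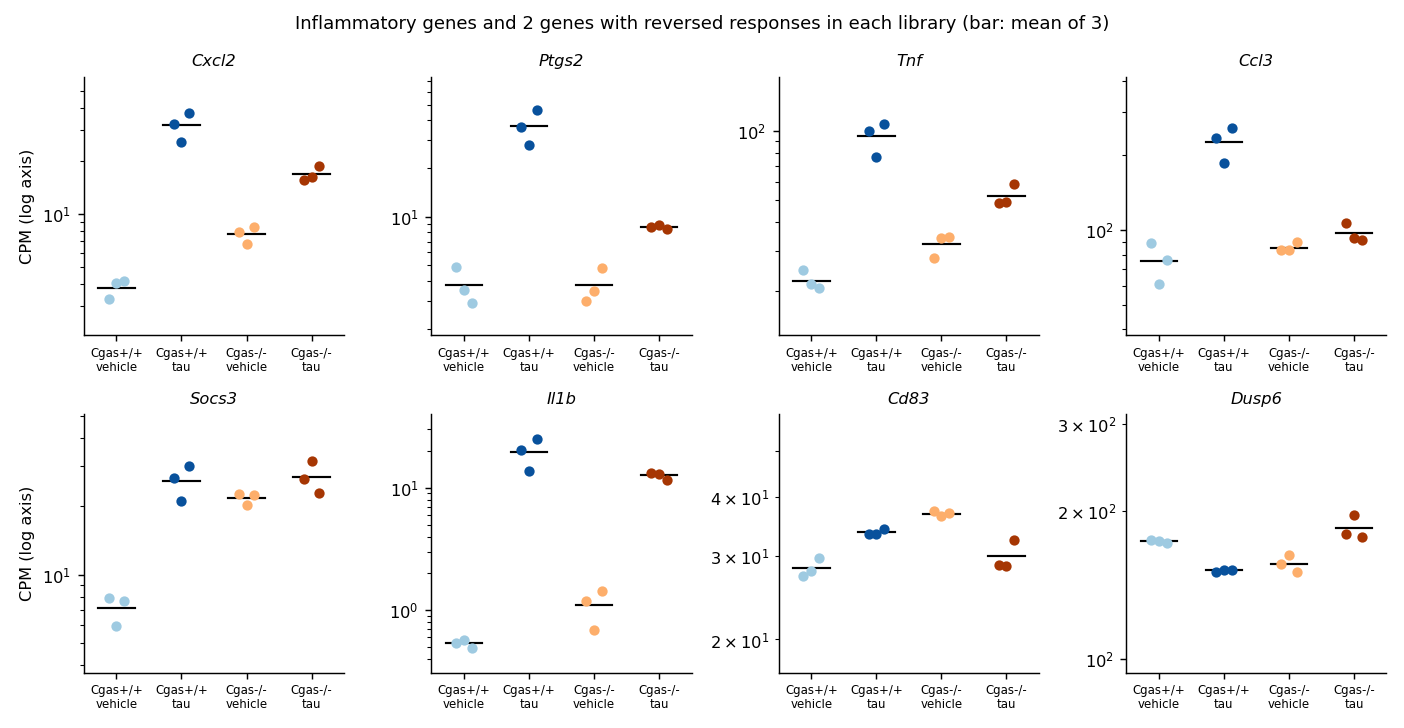
Each point is 1 library and each bar the mean of 3, in CPM on a log axis, for 6 inflammatory genes and for Cd83 and Dusp6, whose responses reversed. In the first 6 panels the step from vehicle to tau is longer in Cgas+/+ than in Cgas-/- cells.

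Some immediate early and stress response genes also had a lower response in Cgas-/- cells. Of 24 immediate early genes, which are induced within minutes of a stimulus, 7 were lower (2.87% of all genes were), led by Junb (-0.57) and Atf3 (-0.42) and including Fos (-0.42). Their median interaction was -0.18, with 5 of 24 above 0. None was called higher by edgeR, DESeq2 or limma-voom, and 0 were higher at an unadjusted p under 0.05. The count of 7 was 3 without the third WT tau library and 4 without the first WT tau, the third WT vehicle, the third Cgas-/- vehicle, the first Cgas-/- tau or the third Cgas-/- tau library. Of 30 genes of the unfolded protein and integrated stress responses, Atf3, Trib3 (-0.36), Atf4 (-0.24) and Ppp1r15a (-0.30) were lower, and 0 were higher in edgeR, DESeq2 or limma-voom or at an unadjusted p under 0.05. Their median interaction was -0.01, with 14 of 30 above 0. Without the third WT vehicle library 2 were called lower. With vehicle, 26 of these 30 genes were higher in Cgas-/- cells (25.4% of all genes were).

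Of the 17 reversed genes, the 12 that rose only in Cgas-/- cells had a median response of -0.20 in WT and 0.21 in Cgas-/- cells, and the 5 that fell only there 0.345 and -0.39. Dusp6, the phosphatase of ERK kinases, fell from 175, 174 and 172 CPM to 150, 152 and 152 CPM in WT cells. Without cGAS it rose from 156, 163 and 150 CPM to 179, 196 and 177 CPM, an interaction of 0.43 (standard error 0.06, adjusted p = 0.000154). Mthfd1l, a mitochondrial folate enzyme, had the largest value of these 12, 0.84. Cd83, a surface marker of activated antigen-presenting cells, rose from 27.2, 27.9 and 29.7 CPM to 33.4, 33.4 and 34.2 CPM in WT cells. It fell from 37.3, 36.4 and 36.9 CPM to 28.8, 28.6 and 32.4 CPM in Cgas-/- cells, an interaction of -0.55 (standard error 0.09, adjusted p = 0.000381). The other 4 that fell only in Cgas-/- cells were Lyz1 (-0.94), Igf2bp2 (-0.71), Lpxn (-0.54) and St8sia1. St8sia1, named after its values were seen because it lies under the minimum of 50 counts for named genes, had the largest value, -2.55 (standard error 0.54, adjusted p = 0.00576), from 7 to 32 counts per library. The count of 17 was 7 without the third WT tau and 28 without the first Cgas-/- tau library, 9 without the second WT vehicle, 11 without the first WT tau, and 10 without the first Cgas-/- vehicle or the second Cgas-/- tau library.

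Among the 243 genes that fell less, all passed the test for a fall in WT cells and 37 did so in Cgas-/- cells. Their median response was -0.40 in WT and -0.01 in Cgas-/- cells. Angptl4, an inhibitor of lipoprotein lipase, was at 19.1, 23 and 17.6 CPM with vehicle and 11.4, 12.8 and 8.44 CPM with tau in WT cells. It was at 19.9, 16.6 and 21.1 CPM and at 22.3, 20.2 and 20.3 CPM in Cgas-/- cells, an interaction of 0.99 (standard error 0.17, adjusted p = 0.000847). The highest value in this class, 3.06 for Gm19557 (standard error 0.91, adjusted p = 0.0466), came from 0 to 18 counts per library, under the minimum of 50 for named genes, and is given after its values were seen. The other 4 values above 1, 1.10 for Bbs12, 1.08 for P3h4, 1.03 for B3galt5 and 1.0 for the microglial receptor Gpr34, stood at adjusted p of 0.0205 to 0.0339, and each lost its call in 4 or more of the 12 fits that leave out a library. The class itself shrank from 243 to 100 genes without the first WT tau library, to 111 without the third WT tau or the first Cgas-/- vehicle library, to 123 without the second WT vehicle library, and to 147 without the second and 155 without the third Cgas-/- tau library.

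Of the 47 genes that fell more, 44 passed the test for a fall in Cgas-/- cells and 3 passed the test in WT cells. For 36 of the 47 the fitted WT response was above 0, and the class median in WT cells was 0.07. Nes, an intermediate filament gene, was at 154, 147 and 154 CPM with vehicle and 159, 145 and 154 CPM with tau in WT cells. In Cgas-/- cells it was at 182, 178 and 168 CPM and fell to 122, 128 and 124 CPM, an interaction of -0.51 (standard error 0.06, adjusted p = 2.44e-05). The count of 47 moved to 18 genes without the third WT tau library, 23 without the second and 28 without the third Cgas-/- tau library, and 94 without the first Cgas-/- tau library. Ksr2, with a value of -1.17, lost its call in 11 of the 12 fits that leave out a library.

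Genes of microglial identity were called more often than genes in general, though most were not called. Of 27 homeostatic genes 6 had a called interaction, against 6.45% of all genes. The value was higher in Cgas-/- cells for 5 and lower for 1 (3.57% and 2.87% of all genes). The median interaction was 0.06, while Gpr34 had 1.0 and Tmem119 0.85. With vehicle, 20 of the 27 were lower and 4 higher in Cgas-/- cells (27.2% and 25.4% of all genes). Cx3cr1, the fractalkine receptor, rose from 356, 371 and 374 CPM to 449, 455 and 438 CPM in WT cells and from 117, 117 and 112 CPM to 178, 188 and 191 CPM in Cgas-/- cells, an interaction of 0.40 (standard error 0.06, adjusted p = 0.000156). Csf1r, the growth factor receptor on which microglia depend, had an interaction of 0.30. Tmem119, a microglial surface protein, fell by 0.57 in WT cells and had a response of 0.28 in Cgas-/- cells that did not pass. P2ry12 and Mef2c were not called, with interactions of -0.10 and -0.04. The count of 5 with a higher response was 3 without the first WT tau, the third WT tau, the second Cgas-/- vehicle or the third Cgas-/- tau library.

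In other programmes at most 6 members of a list were called, as the counts beside the list medians show. These counts stand against 2.87% of all genes lower and 3.57% higher in Cgas-/- cells. Several lists lay above these shares, among them glycolysis and hypoxia (5 of 31 higher) and pattern receptors (4 of 35 lower). For disease-associated microglial genes 3 of 30 were higher, namely Ctsd, Timp2 and Spp1, each falling less, and none of these 3 was called without the second WT vehicle or the first Cgas-/- vehicle library. None was called lower by edgeR or limma-voom, while DESeq2 called 1 and 4 were lower at an unadjusted p under 0.05. Of the 10 MHC class II genes 0 were called by edgeR, DESeq2 or limma-voom, with 2 lower and 2 higher at an unadjusted p under 0.05.

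Of 23 genes of MHC class I presentation 3 were higher, among them H2-T24 (1.99) and the peptide transporter Tap1 (0.61). The 2 lower ones, the immunoproteasome subunit Psmb10 (-0.33) and Tapbpl (-0.42), were not called without the third WT tau library, and 1 was not called without the third Cgas-/- tau library. Of 35 pattern receptor genes 4 were lower, Tlr2, Tlr7, Tlr9 and Msr1, and 2 higher, Marco and Mavs. DESeq2 called 8 lower. The lower count was 1 without the second Cgas-/- tau library, 2 without the third WT vehicle or the third WT tau library, and 9 without the first WT vehicle or the second WT tau library.

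NRF2 and iron-handling genes protect against oxidants and free iron. Their median response was 0.51 in WT and 0.45 in Cgas-/- cells, and 2 of 28 had a lower and 4 a higher response, the higher ones including the peroxiredoxin Prdx6 (0.48) and Gclm (0.35), a subunit of the enzyme that starts glutathione synthesis. Among 48 cell cycle genes 30 fell in WT and 18 in Cgas-/- cells (13% and 5.54% of all genes). Their interactions, 1 lower (Cdt1) and 2 higher (E2f2 and Mki67), were at about the share over all genes (2.87% and 3.57%). Lysosomal genes counted 2 lower and 1 higher of 30, and cholesterol genes 1 lower and 2 higher of 33. These small counts changed when single libraries were left out. For glycolysis and hypoxia genes 1 of 31 was lower and 5 were higher, and the 5 became 1 without the first WT tau, the third WT tau, the first Cgas-/- vehicle or the third Cgas-/- tau library.

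**Figure D4:**
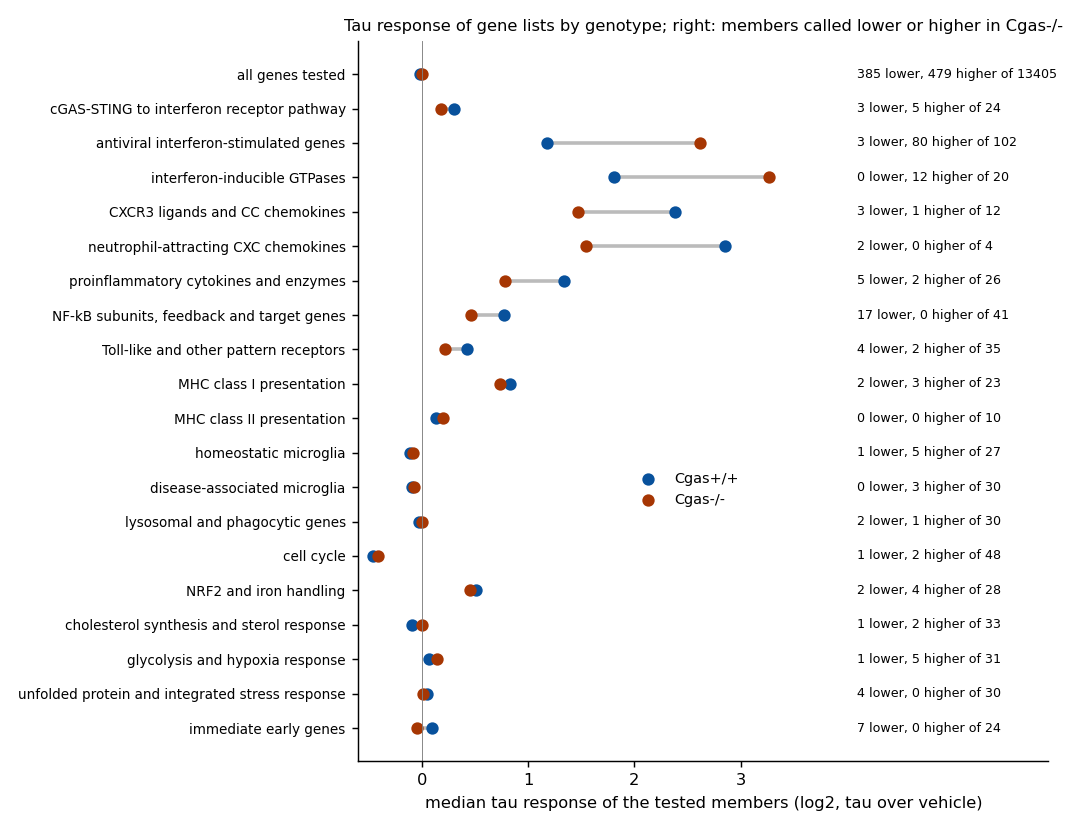
Points are the median log2 tau response of the tested members of each gene list in Cgas+/+ (blue) and Cgas-/- cells (brown), with the number of members called lower or higher in Cgas-/- cells at the right. The antiviral list lies at 1.18 and 2.62 and the NF-kB list at 0.77 and 0.46, so the order of the genotypes is opposite in the 2 lists.

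On the log2 scale, the interferon interaction with tau differed in direction from that with DNA, the ligand of cGAS. In CPM gained, the tau increase was larger in WT cells for 96 of the 102 antiviral genes. HT-DNA, herring testis DNA, had been given at 1 µg/ml for 6 h to 3 further libraries of each genotype. The tau fibrils had been given at 2 µg/ml for the same time. The interaction of HT-DNA with genotype was fitted with all 18 libraries. Of the 102 antiviral genes 79 had a lower HT-DNA response in Cgas-/- cells and the other 23 were not called (over all genes tested, 16.6% were lower and 17.4% higher), with median responses of 1.69 in WT and 0.15 in Cgas-/- cells. In edgeR 99 of 102 rose with HT-DNA in WT cells and 1 in Cgas-/- cells. The tau and HT-DNA interactions share their vehicle libraries, so the tau response was also set directly against the HT-DNA response between genotypes, a contrast that holds no vehicle library and was added after the data were seen. There 99 of 102 antiviral genes were higher in Cgas-/- cells and the other 3 were not called (over all genes tested, 14.9% were higher and 12% lower), with a median of 3.12 on the log2 scale.

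Single genes are given side by side. Oasl2 responded to HT-DNA by 1.54 in WT and 0.51 in Cgas-/- cells, the latter not passing the test, with an HT-DNA interaction of -1.03 (adjusted p = 0.000186) beside its tau interaction of 3.67. Rnf213 had an HT-DNA interaction of -1.56 beside 1.66 for tau. Among inflammatory genes Tnf had -1.71 with HT-DNA and -1.39 with tau, Ccl3 -1.82 and -1.40, and Mmp13 -2.26 and -0.94. Between tau and HT-DNA the genotype effect on Tnf did not pass the test (0.32, adjusted p = 0.0801), while that on Mmp13 did (1.32, adjusted p = 1.32e-12). Cxcl2 had an HT-DNA interaction of 0.08 that was not called beside -1.94 with tau.

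**Figure D5:**
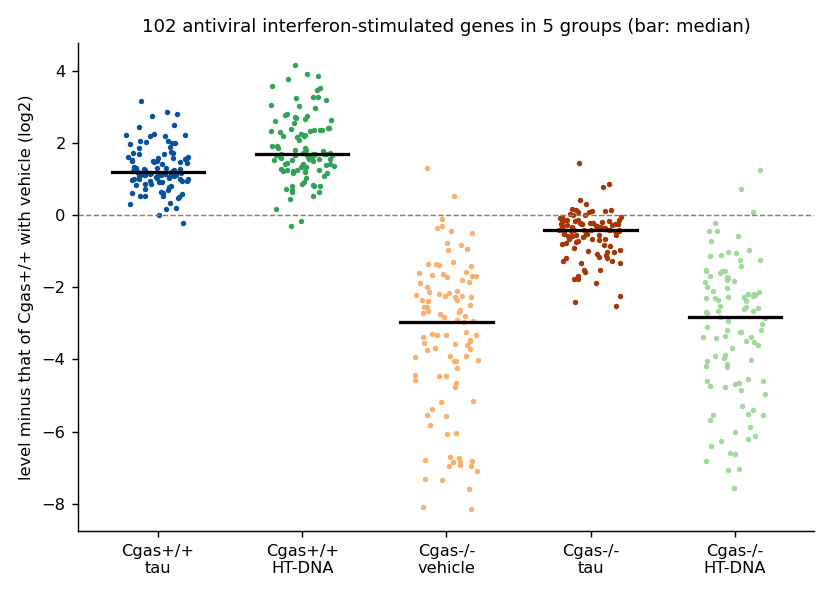
Each point is 1 of 102 antiviral interferon-stimulated genes, placed by its log2 level relative to Cgas+/+ cells with vehicle (dashed line), in the fit of 18 libraries, and bars are medians. The medians are 1.19 with tau and 1.69 with HT-DNA in Cgas+/+ cells, and -2.95 with vehicle, -0.41 with tau and -2.83 with HT-DNA in Cgas-/- cells.

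Interferon transcripts themselves were too rare to compare. None of the 12 interferon ligand genes passed the filter, and Ifnb1 had 10, 0 and 3 counts in WT cells with vehicle and 11, 1 and 2 with tau. The transcript had 0, 0 and 0 counts in Cgas-/- cells with vehicle and 1, 0 and 0 with tau. A difference in Ifnb1 was not detectable at this depth.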

How the data were processed

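RNA-seq of primary mouse microglia was analysed in 12 libraries, 3 for each of WT and Cgas KO cells with vehicle or tau fibrils, and HT-DNA libraries were added (18 in all) where named. The authors deposited raw read counts per Ensembl gene, without normalization. The submitters' processing notes name GRCm38, edgeR and limma. The aligner and the annotation are not given in the sources used here. Columns were matched to samples by name.

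Genes passing filterByExpr were fitted with TMM scaling and the quasi-likelihood test of edgeR 4.0.16 in R 4.3.3, with 1 mean per group and the interaction as a contrast. P-values were corrected for testing 13405 genes (Benjamini-Hochberg), with a threshold of 0.05. CPM were computed on TMM-scaled library sizes. Folds against groups at 3 counts or fewer in each library are lower bounds, and cover counting error only. A called gene was sorted as reversed where the responses had opposite signs and each passed within its genotype, and otherwise by the size of its responses. The members and gene lists were chosen with earlier results of these data known.

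Named genes were those the study discusses for this pathway, up to 6 per class with the largest interaction and a mean of at least 50 counts in the highest group, the 5 with the lowest adjusted p in each direction, and the 4 lowest per list. Some genes that this rule names are not reported here. Further list members are named to account for counts, after their values were seen.

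Alternatives were DESeq2 1.42.0, voom of limma 3.58.1, RLE scaling, no filter, a log2 minimum of 1, all 18 libraries, the replicate number as a block, reversal by opposite signs alone, and each library left out. The CPM gains, the contrast of tau-treated Cgas-/- with vehicle-treated WT cells, the contrast of tau with HT-DNA and the alternatives for the genotype differences and for HT-DNA were added after the data were seen. Hippocampal libraries of the series were not used here. Promoter sequences were taken from RefSeq (GRCm38.p6) and matched by symbol for 81 of 110 named genes. On counts simulated for the tau by genotype interaction over 13219 genes, 92%, 78%, 84% and 100% of genes changed by -2, -1, 1 and 2 on the log2 scale were recovered, and 3.8% of calls were false. The changed genes were drawn above a minimum mean count, and smaller changes were not simulated. Only 131 of the 864 called interactions were beyond 1, so these shares do not describe most of the calls.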

Additional observations from a re-analysis of the deposited data

Results flagged for a closer look

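The responses to tau differed between the genotypes by the interaction test for 385 genes with a lower and 479 with a higher value in Cgas-/- cells, and for the following named genes. Values are interactions on the log2 scale, given without explanation.

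Among genes that rose more in Cgas-/- cells the interaction was 4.72 for Ifit3, 4.53 for Rtp4, 4.30 for Ifit1, 4.27 for Gm4951, 4.15 for Iigp1, 4.11 for Oas3, 3.67 for Oasl2, 3.27 for Irf7 and 2.87 for Ccl5. It was 1.66 for Rnf213, 1.51 for Sp100, 1.21 for Irf9, 1.09 for Ddx60, 0.96 for Parp12 and 0.60 for Ifi35. Among genes that rose less it was -2.09 for Ptgs2, -1.94 for Cxcl2, -1.69 for Il1b, -1.55 for Socs3, -1.40 for Ccl3, -1.39 for Tnf, -0.94 for Mmp13 and -0.75 for Zfp36.

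Among genes that fell less it was 1.10 for Bbs12, 1.08 for P3h4, 1.03 for B3galt5, 1.0 for Gpr34, 0.99 for Angptl4 and 0.97 for 6430548M08Rik. Among genes that fell more it was -1.17 for Ksr2, -0.78 for Lipn, -0.55 for Rpp21 and -0.51 for Nes. Of the 12 fits that leave out a library, Ksr2 kept its call in 1, Lipn in 3, Rpp21 in 6 and Nes in 12. Reversed upward were Mthfd1l at 0.84, Megf9 at 0.68, Ifi27 at 0.53, Nbeal2 at 0.52, Dusp6 at 0.43 and Arap3 at 0.42, and reversed downward Lyz1 at -0.94, Igf2bp2 at -0.71, Cd83 at -0.55 and Lpxn at -0.54. Groups of 3 libraries are too small for a test of single outlying libraries.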

How the results depend on the processing

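All 864 called genes kept their direction under each alternative and without each library. Of 96 called named genes, 69 kept their call in every other fit that gave them an adjusted p, up to 18 fits per gene. With no filter on low counts, 26 genes were reversed and 80 fell more. By opposite signs alone, 280 were reversed. Requiring a log2 value beyond 1 left 23 genes lower and 108 higher in Cgas-/- cells, 23 with a smaller and 107 with a larger response (18 rose less, 5 fell less, 103 rose more, 4 fell more) and 1 reversed. It left 450 genes for tau in WT cells, 371 for tau in Cgas-/- cells, 1316 between genotypes with vehicle, 1374 with tau and 857 for the HT-DNA interaction. With DESeq2, limma-voom, RLE scaling and all 18 libraries the counts of classes and comparisons stayed within 1.5 times of those reported. RLE scaling moved the median interaction by -0.0229.

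Leaving out 1 library gave 207 to 593 genes lower and 272 to 598 higher, 298 to 747 with a smaller, 192 to 359 with a larger and 7 to 28 with a reversed response, 187 to 526 that rose less, 100 to 317 that fell less, 156 to 265 that rose more and 18 to 94 that fell more. The cause was not tested. Among genes not called, Isg20 ran from -0.028 to 0.325 and Mb21d1 from -0.17 to 0.069 over these fits, changing sign without the first WT vehicle or the first Cgas-/- vehicle library (Isg20) and without the second WT vehicle, the second Cgas-/- vehicle or the third Cgas-/- vehicle library (Mb21d1).

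Same-numbered libraries of different groups deviated with correlations of -0.0958 to 0.0956 over 18 pairs, and 2 of 12 libraries correlated best with their own number. The numbers thus gave no sign of pairing. With 3 libraries per group and no label for the culture, these values cannot show whether libraries shared one. With the replicate block 943 genes were called, 843 of them among the 864, and the count of each class stayed within 1.5 times. Depth limits the low genes, such as Ifnb1, Il6 and Cxcl11.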
